A study of Mus musculus with 16 samples.

Results

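The immediate early genes described here are Fos, Fosb, Jun, Junb, Atf3, Egr1, Klf6, Ier2, Dusp1 and Zfp36, 10 of the 78317 genes in the deposited tables. They were selected by symbol from a list that names no comparison and no threshold, and the list was proposed with earlier results of these data in view, so it may have been chosen on the diet and sex comparisons given here. The levels, calls and adjusted p-values of these genes are therefore a description and support nothing further. RNA was measured in whole liver of wild-type C57BL/6J mice, an inbred laboratory strain, in 4 groups of 4: females and males on a normal chow with 4.5% of calories from fat, and females and males on a high fat diet with 60% of calories from fat. The mice were 6 weeks old when the diets began and ate them for 10 weeks. The 2 diets came from different makers, and the hour at which livers were collected is not given in the sources used here. No group carried a transgene or a drug, and all 16 libraries have the same batch number in the labels.

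Immediate early genes are switched on within minutes of a stimulus by transcription factors already present in the cell, without new protein synthesis, and their mRNAs are short-lived. Growth factor and stress signals reach them through the MAP kinase cascade and factors such as SRF with its ELK partners and CREB. Many encode transcription factors: Fos and Fosb pair with Jun and Junb to form AP-1, Atf3 is a stress-induced relative of these proteins, and Egr1 and Klf6 bind GC-rich sites through zinc fingers. Others act as brakes: Dusp1 is a phosphatase that switches MAP kinases off, and Zfp36 (tristetraprolin) binds AU-rich elements and speeds the decay of inflammatory and immediate early mRNAs. In liver they are known for their rapid response to partial hepatectomy, feeding, stress and tissue handling.

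The deposited tables hold RSEM expected counts, with totals of 22228115 to 41420589 per library, and TPM, which corrects for gene length. Values per library are CPM, the reads of a gene per fixed number of reads, on library sizes that edgeR scaled with TMM factors, which set most genes level between libraries. Differences come from edgeR's quasi-likelihood test with Benjamini-Hochberg adjustment across the 14781 genes tested, and a gene passed at an adjusted p under 0.05. 9 of the 10 genes were tested: Fosb fell below the filter on low counts. The genes passed the filter through whichever groups held enough reads, so counts over the 9 are not counts over all members. The labels do not say how animals were housed together or collected, so the p-values measure the spread between these libraries. Hepatocyte markers such as Alb were high in every library, with the summed TPM of 8 hepatocyte markers between 54864 and 97000. Male high fat replicates 2 and 3 were far more alike than any other pair, with a chi-square of 4.07 per gene over 12764 genes, against 20.9 to 308.1 for every other pair within a group. They differed by more than counting noise, as 2 preparations from 1 animal also would, and the labels do not tell these cases apart. They were kept as separate libraries, so the male high fat group may hold 3 animals rather than 4. The p-values of every comparison rest on this, since the fit shares its spread over all 16 libraries. Those of comparisons with that group rest on it most directly. With the 2 averaged into 1, the diet test in males called 4 of the 9 genes, as with all libraries, and the test of sex on high fat diet called 1 in place of 3. These 2 libraries also held the highest summed TPM of 7 pancreatic acinar markers (34.5 and 17.7, against 0.16 to 6.82 in the other 14). In whole liver, fewer cells of a type and less RNA per cell cannot be told apart.

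Per length, Zfp36 had the highest level of the 10 genes and Fosb the lowest. Mean TPM over the 16 libraries was 21.8 ± 4.80 (SD, n = 16) for Zfp36, 15.9 ± 7.62 for Dusp1, 9.95 ± 3.01 for Ier2, 7.28 ± 4.35 for Jun and 6.78 ± 3.79 for Junb. It was 4.61 ± 1.64 for Klf6, 3.52 ± 2.97 for Egr1, 1.76 ± 1.17 for Atf3, 1.24 ± 1.24 for Fos and 0.062 ± 0.059 for Fosb. The ranges over libraries overlapped for every pair of neighbours in this order except Fos (0.21 to 4.65 TPM) and Fosb (0 to 0.18 TPM). The brakes Zfp36 and Dusp1 were thus the 2 highest by mean TPM, and they held ranks 1 and 2 in each of the 4 groups. The order below them differed with the group: Jun ranked 5 in both normal diet groups, 5 in females on high fat diet and 3 in males on high fat diet, and Junb ranked 6 in females on normal diet and 4 in the other 3 groups.

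Promoter letters are shown for 4 of the genes, because they include the gene with the largest fitted change (Fos), its AP-1 partner Junb, and the 2 brakes, whose RNA did not pass the diet test. The sequences are the 150 bases before the RefSeq gene start in GRCm38.p6, 5′ to 3′ on the gene's strand. The deposited data use GRCm39, so these coordinates are not those of the deposited files. Capitals mark exact matches to the cAMP response element TGACGTCA or its core TGACG, the E-box CACGTG, the EGR site GCGGGGGCG, the TATA box TATAAA, or the CArG box (the SRF site).
Fos, chr12:85473740-85473889, plus strand: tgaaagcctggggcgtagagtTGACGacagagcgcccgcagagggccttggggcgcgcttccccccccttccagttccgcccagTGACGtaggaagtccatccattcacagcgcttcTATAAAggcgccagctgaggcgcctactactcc
Junb, chr8:84978749-84978898, minus strand: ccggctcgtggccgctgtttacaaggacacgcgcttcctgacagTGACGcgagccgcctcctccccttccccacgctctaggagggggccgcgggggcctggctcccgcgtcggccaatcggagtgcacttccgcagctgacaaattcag
Dusp1, chr17:26508473-26508622, minus strand: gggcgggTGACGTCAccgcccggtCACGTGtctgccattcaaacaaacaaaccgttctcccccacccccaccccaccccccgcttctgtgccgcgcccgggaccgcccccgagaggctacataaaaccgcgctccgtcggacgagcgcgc
Zfp36, chr7:28379229-28379378, minus strand: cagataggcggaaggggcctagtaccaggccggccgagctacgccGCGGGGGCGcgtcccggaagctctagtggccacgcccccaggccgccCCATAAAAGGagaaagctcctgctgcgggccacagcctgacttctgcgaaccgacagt

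The RefSeq table held promoters of 8 of the 10 genes, with no entry used for Egr1 and Ier2, and 32851 promoters in all. Motifs were searched on both strands in the window from 250 bases before to 50 after the start. The core TGACG, which every TGACGTCA also contains, was present in 5 of the 8 (Fos, Fosb, Junb, Atf3 and Dusp1) and in 20.8% of all promoters. In Fos it lay at -129 and -66, counted from the first transcribed base as 1, and in Junb at -106. The full TGACGTCA was present in Dusp1 alone, at -143, with a further TGACG at -191 outside the letters shown, and in 1.79% of all promoters. The CArG box was present in Zfp36 alone, from -58 to -49, and in 1.63% of all promoters. GCGGGGGCG was present in Fosb and Zfp36 and in 2.91% of all promoters, and CACGTG in Klf6 and Dusp1 and in 7.15%. TATAAA was present in Fos and Junb and in 13.6% of all promoters. In Fos it lay from -33 to -28. In Junb it lay from 1 to 6, not before the start, and outside the letters shown. The AP-1 site itself, TGACTCA or TGAGTCA, was in none of the 8 windows and in 5.2% of all promoters. A match here is a match of letters only, and sites outside the window were not searched.

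In females on high fat diet, 4 of the 9 tested genes were higher than in females on normal diet: Fos, Egr1, Junb and Atf3. None was lower. Over all tested genes, 11.5% passed the same test in either direction, and nothing is read from the comparison because the genes may have been chosen on it. 6 of the 9 had an unadjusted p under 0.05, against 27.2% of all tested genes. The median log2 fold change of the 9 genes was 0.81, against 0.00 over all tested genes.

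Fos had the largest fitted change. It was read at 0.371, 0.582, 0.329 and 0.329 CPM in the 4 female normal diet libraries, and at 2.33, 6.28, 2.36 and 4.32 CPM in the 4 female high fat diet libraries. Every high fat library lay above every normal diet library, and replicates 2 and 4 were the highest. The normal diet level rested on 9 to 19 reads per library and the high fat level on 63 to 190. Fos rose from 0.403 ± 0.121 to 3.82 ± 1.89 CPM (SD, n = 4 each), a log2 fold change of 3.23 ± 0.44 (SE), at an edgeR adjusted p of 0.000187. On the log2(TPM + 1) scale the change was 1.54, because that pseudocount is large beside the TPM of Fos, and with a pseudocount of 0.1 it was 2.95.

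Egr1 was read at 4.93, 6.16, 7.46 and 7.85 CPM in females on normal diet and at 17.7, 39.5, 11.7 and 23.2 CPM on high fat diet. The groups did not overlap, and replicate 2 again held the highest value. The log2 fold change was 1.80 ± 0.38 (SE), at an edgeR adjusted p of 0.00866. Junb was read at 3.19, 4.44, 5.27 and 4.38 CPM on normal diet and at 10.3, 15.3, 9.72 and 13.3 CPM on high fat diet, also without overlap. Its log2 fold change was 1.49 ± 0.28, with an adjusted p of 0.00315 by edgeR. Fos, Egr1 and Junb were thus the 3 genes whose female groups did not overlap, against 18.3% of all tested genes, and each kept its call whichever of the 16 libraries was left out.

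Atf3 was nearer the threshold. Its values were 2.22, 1.84, 1.32 and 0.887 CPM in females on normal diet and 3.53, 3.51, 1.79 and 5.73 CPM on high fat diet, so that high fat replicate 3 lay within the normal diet range. The log2 fold change was 1.22 ± 0.38 (SE), at an edgeR adjusted p of 0.0475. The call was kept in 6 of the 16, those without female normal diet replicate 1, female high fat replicate 3, male normal diet replicates 1 and 4, and male high fat replicates 1 and 3. In the other 10 it was lost, with adjusted p up to 0.166. It was also lost with no filter on low counts.

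The other 5 tested genes did not pass in females. Jun was read at 7.93, 11.7, 10.9 and 10.8 CPM on normal diet and at 12.0, 29.0, 11.3 and 20.5 CPM on high fat diet. High fat replicates 2 and 4 stood above the normal diet libraries by a wide margin, while replicate 3 lay within their range. The log2 difference was 0.81 ± 0.27 (SE), at an edgeR adjusted p of 0.0613, and a call appeared in 3 of the 16 (without female high fat replicate 1 or 3, or male normal diet replicate 3). Klf6 was read at 15.8, 17.6, 12.1 and 11.9 CPM on normal diet and at 21.6, 17.0, 18.8 and 23.2 CPM on high fat diet, with a log2 difference of 0.49 ± 0.16 and an adjusted p of 0.0583 by edgeR. It passed in 4 of the 16 fits, those without female normal diet replicate 2, female high fat replicate 2, or male normal diet replicate 1 or 2. Ier2, a small nuclear protein of the early response, differed by 0.39 ± 0.19 on the log2 scale, with an adjusted p of 0.196 by edgeR.

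Neither brake passed in females. Dusp1 was read at 26.4, 16.2, 11.4 and 19.0 CPM on normal diet and at 6.58, 29.3, 13.8 and 20.6 CPM on high fat diet. The high fat libraries held both the lowest and the highest of these 8 values. The log2 difference was -0.05 ± 0.54 (SE), so the spread between animals leaves room for a change in either direction. Zfp36 was read at 37.3, 42.9, 41.8 and 42.8 CPM on normal diet and at 32.5, 65.2, 35.2 and 42.0 CPM on high fat diet, with a log2 difference of 0.09 ± 0.18 and an adjusted p of 0.80 by edgeR. Over the alternatives run, the log2 difference ranged from -0.42 to 0.22 for Dusp1 and from -0.17 to 0.27 for Zfp36, so no direction is given for either.

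**Figure D1:**
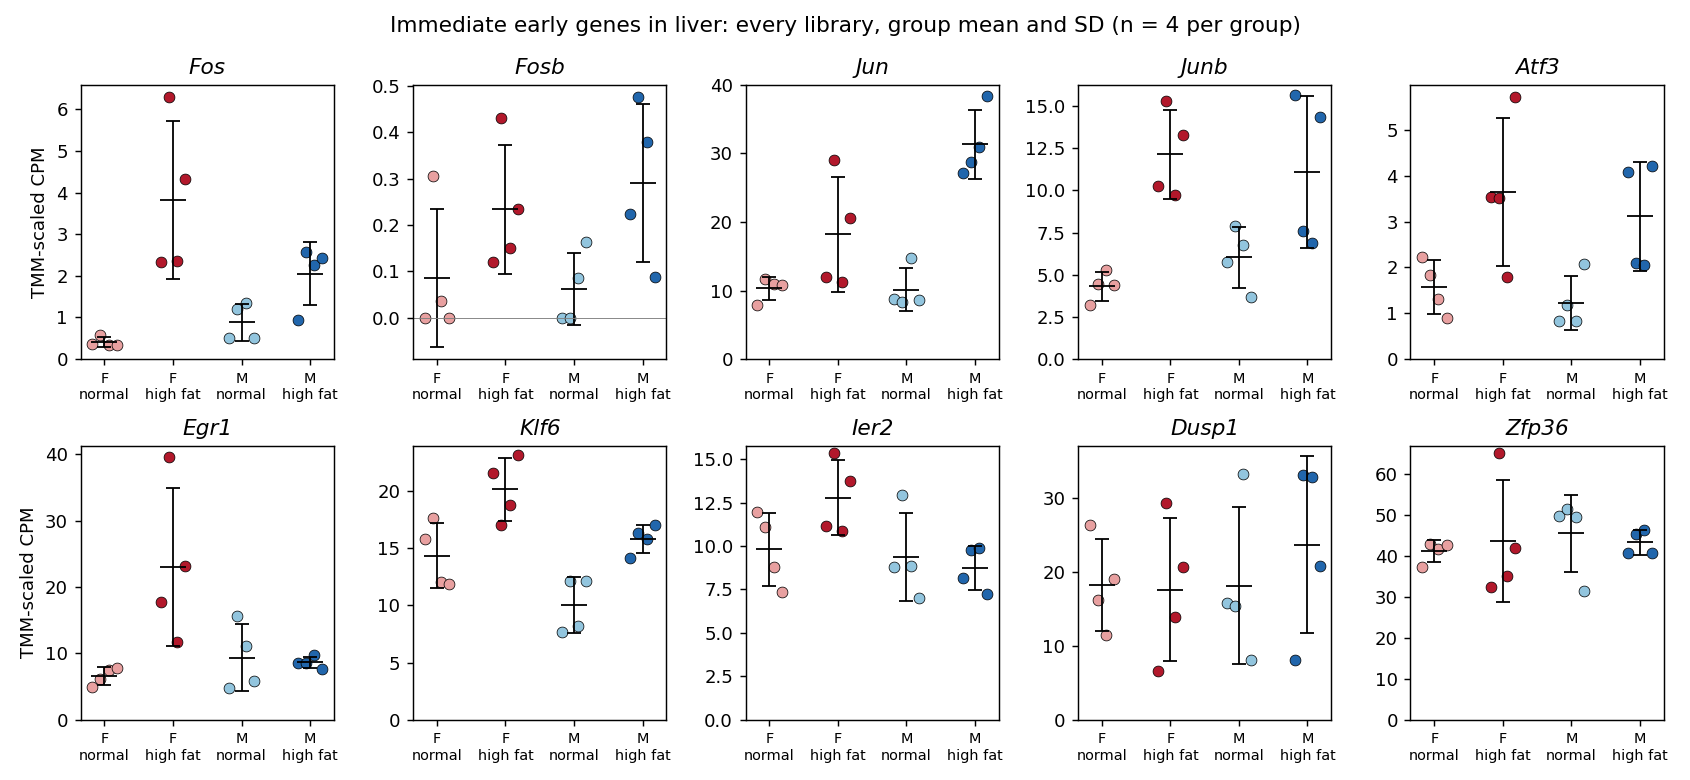
Level of each immediate early gene in every library, as TMM-scaled CPM on a linear axis that differs between panels, with the group mean (dash) and SD (bar) for n = 4 libraries in each of the 4 sex and diet groups. The female high fat diet libraries lie above all female normal diet libraries for Fos, Junb and Egr1, and the male high fat diet libraries lie above all male normal diet libraries for Jun and Klf6.

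In males on high fat diet, 4 of the 9 tested genes were higher than in males on normal diet: Jun, Klf6, Atf3 and Junb. None was lower. Over all tested genes, 11.4% passed in either direction, and again nothing is read from this share. The median log2 fold change of the 9 genes was 0.65, against 0.01 over all tested genes. Atf3 and Junb passed in both sexes, Fos and Egr1 in females, and Jun and Klf6 in males.

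Jun had the largest change in males. It was read at 8.81, 8.33, 14.8 and 8.61 CPM on normal diet and at 27.2, 28.7, 30.9 and 38.4 CPM on high fat diet. The groups did not overlap. Jun rose from 10.1 ± 3.10 to 31.3 ± 4.98 CPM (SD, n = 4 each), a log2 fold change of 1.63 ± 0.27 (SE), at an edgeR adjusted p of 0.00141, and the call was kept in each of 16 fits with 1 library left out. Without male high fat replicates 2 and 3, the 2 near-identical libraries, the log2 fold change was 1.70 and the call was kept.

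Klf6 was read at 7.70, 12.1, 8.17 and 12.1 CPM in males on normal diet and at 14.1, 16.4, 15.8 and 17.0 CPM on high fat diet, also without overlap. Its log2 fold change was 0.65 ± 0.17 (SE), at an edgeR adjusted p of 0.0168. The call was lost without male normal diet replicate 1 or 3, and without both male high fat replicates 2 and 3, where the log2 fold change was 0.62. Jun and Klf6 were the 2 genes whose male diet groups did not overlap, against 18.5% of all tested genes.

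Atf3 in males was read at 0.824, 1.17, 0.821 and 2.08 CPM on normal diet and at 4.09, 2.10, 2.06 and 4.21 CPM on high fat diet. High fat replicates 1 and 4 were about level with each other, and replicates 2 and 3 lay near the highest normal diet library. The log2 fold change was 1.31 ± 0.39 (SE), at an edgeR adjusted p of 0.0387, and it was 1.72 without high fat replicates 2 and 3. The call was kept in 10 of the 16 and lost without female normal diet replicate 2, male normal diet replicate 1, 2 or 3, or male high fat replicate 1 or 4.

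Junb showed the same split of the male high fat libraries, at 15.6, 7.57, 6.91 and 14.3 CPM, against 5.76, 7.90, 6.78 and 3.68 CPM on normal diet. Replicates 2 and 3 lay within the normal diet range and replicates 1 and 4 above it. Summed macrophage markers split likewise, at 392 and 302 TPM in replicates 1 and 4 against 220 and 190 in replicates 2 and 3. So did 6 cholangiocyte markers, at 90.5 and 88.5 against 53.9 and 47.8 TPM. Of the 5 cholangiocyte markers tested for diet in males, however, none was higher and 1 was lower. Neutrophil and sinusoidal endothelial sums also split this way, and stellate, T cell, B cell and red blood cell sums did not. Hepatocyte, adipocyte and acinar sums were higher in replicates 2 and 3. Alb took 3.73% and 4.01% of counts in replicates 1 and 4 and 5.91% and 5.84% in replicates 2 and 3. The part of these in the Junb and Atf3 levels was not tested. The log2 fold change was 0.88 ± 0.28 (SE), at an edgeR adjusted p of 0.0484, and 1.31 without high fat replicates 2 and 3. The call was kept in 3 of the 16 (without male normal diet replicate 2, or male high fat replicate 2 or 3). The count of 4 genes in males fell to 1, Jun, without male normal diet replicate 1 or 3, and to 2 without female normal diet replicate 2 or male high fat replicate 4. With no filter on low counts it was also 2, Jun and Klf6.

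Fos did not pass in males. It was read at 0.494, 1.20, 1.34 and 0.514 CPM on normal diet and at 0.929, 2.58, 2.27 and 2.44 CPM on high fat diet, with high fat replicate 1 inside the normal diet range. The log2 difference was 1.22 ± 0.41 (SE), at an edgeR adjusted p of 0.0619, and it passed without male high fat replicate 1, at 1.45. Egr1 was read at 4.82, 15.7, 11.1 and 5.82 CPM on normal diet and at 8.55, 8.56, 9.76 and 7.70 CPM on high fat diet. All 4 high fat values lay inside the normal diet range, and the log2 difference was -0.12 ± 0.38, with an adjusted p of 0.879 by edgeR.

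The remaining genes did not pass in males. Dusp1 spread widely, at 15.9, 15.4, 33.3 and 8.12 CPM on normal diet and at 8.06, 33.1, 32.9 and 20.8 CPM on high fat diet. The log2 difference was 0.39 ± 0.53 (SE) in males with all libraries and -0.33 without high fat replicates 2 and 3, which held the 2 highest values of their group. Zfp36 was read at 49.8, 51.6, 49.5 and 31.6 CPM on normal diet and at 40.8, 45.4, 46.5 and 40.8 CPM on high fat diet, with a log2 difference of -0.07 ± 0.18. Ier2 differed by -0.10 ± 0.19 on the log2 scale, with an adjusted p of 0.775 by edgeR.

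Fosb was near the limit of detection. Its expected counts were 0, 10, 1 and 0 in females on normal diet, 4, 13, 4 and 6 in females on high fat diet, 0, 0, 2 and 6 in males on normal diet, and 6, 14, 11 and 2 in males on high fat diet. All 8 high fat libraries held at least 2 reads, and 4 of the 8 normal diet libraries held none. A count of 0 still allows up to 3 reads, or 0.0724 to 0.114 CPM on the unscaled totals of those 4 libraries, for counting error only. No fold change is given for Fosb.

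The difference between the sexes in the diet change was tested as an interaction, and none of the 9 genes passed, against 0.677% of all tested genes. At an unadjusted p under 0.05 there were 3 of the 9. The diet change of Fos was larger in females by 2.01 ± 0.59 on the log2 scale (SE), at an edgeR adjusted p of 0.139, and that of Egr1 by 1.92 ± 0.53, with an adjusted p of 0.131. That of Jun was smaller in females by 0.82 ± 0.38, with an adjusted p of 0.376. DESeq2 called 2 of the 9, Egr1 at an adjusted p of 0.00578 and Fos at 0.0363. Over all alternatives run, the adjusted p of the interaction ranged from 0.00578 to 0.305 for Egr1 and from 0.0363 to 0.268 for Fos. A difference between the sexes in the diet change is thus not shown by the edgeR test for any of these genes.

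**Figure D2:**
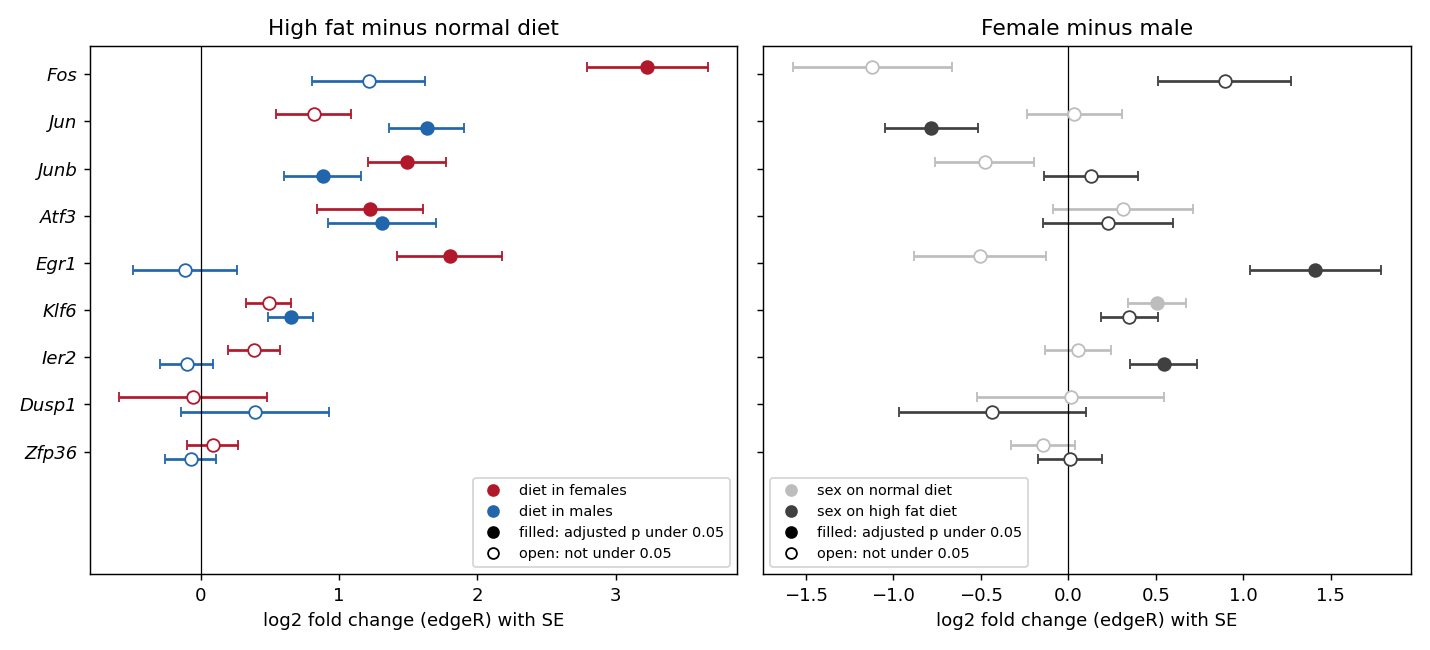
Fitted log2 fold changes from edgeR with their standard errors for the 9 tested genes, high fat minus normal diet within each sex on the left and females minus males on each diet on the right, where filled points passed at an adjusted p under 0.05. Fos in females has the largest diet change at 3.23, and Egr1 has the largest female excess on high fat diet at 1.41.

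Females and males were also compared on each diet. On normal diet, 1 of the 9 genes passed, against 15.7% of all tested genes: Klf6 was higher in females by 0.51 ± 0.17 on the log2 scale (SE), at an edgeR adjusted p of 0.0442. Its female and male values overlapped, and none of the 9 genes had separate groups in this comparison, against 22.0% of all tested genes. The call was kept in 9 of the 16 and lost without female normal diet replicate 1 or 2, female high fat replicate 3, male normal diet replicate 1 or 3, or male high fat replicate 2 or 4. It was also lost when both male high fat replicates 2 and 3 were left out. Fos was lower in females in this fit by 1.12 ± 0.46 on the log2 scale and did not pass, with an adjusted p of 0.103.

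On high fat diet, 3 of the 9 genes passed, against 20.4% of all tested genes. Egr1 was higher in females by 1.41 ± 0.37 on the log2 scale (SE), at an edgeR adjusted p of 0.0171, and Ier2 by 0.55 ± 0.19, with an adjusted p of 0.0493. Jun was lower in females by 0.78 ± 0.26 on the log2 scale, with an adjusted p of 0.0475. Egr1, Ier2 and Klf6 were the 3 genes whose female and male libraries did not overlap on high fat diet, against 22.7% of all tested genes, and for Jun female replicate 2 (29.0 CPM) lay inside the male range of 27.2 to 38.4 CPM.

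These sex differences depended on single libraries. Egr1 lost its call without male high fat replicate 4 and kept it in the other 15 fits. It also lost it when both male high fat replicates 2 and 3 were left out. Ier2 kept its call in 8 of the 16 fits (without female normal diet replicate 1, 2 or 4, female high fat replicate 3, male normal diet replicate 1, 2 or 4, or male high fat replicate 3). Jun kept it in 2 of the 16, those without female high fat replicate 2 or male normal diet replicate 3. Of the 9 other alternatives, Jun kept its call with DESeq2 and with the replicate block and lost it in the other 7.

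Some marker lists of other liver cells moved with the female diet comparison and others did not. In females, none of the 8 sinusoidal endothelial, 5 cholangiocyte, 4 B cell, 6 T cell or 5 red blood cell markers tested passed by edgeR. At an unadjusted p under 0.05 there was 1 endothelial, 1 T cell and 1 red blood cell marker. Over all tested genes, 11.5% passed for diet in females, 11.4% for diet in males and 20.4% for sex on high fat diet. The summed TPM of 10 Kupffer cell and macrophage markers was 225 to 323 in females on normal diet and 421 to 656 on high fat diet, with 3 of the 10 genes higher and none lower. In males it was 190 to 320 on normal diet and 190 to 392 on high fat diet, with 1 of 10 higher, and on high fat diet 7 of the 10 were higher in females than in males. The summed TPM of 10 neutrophil markers was 2.36 to 3.98 and 7.13 to 20.2 in females on the 2 diets, with 2 of the 3 tested markers higher. In males the neutrophil sum was 1 to 23.5 on normal diet and 10.8 to 27.4 on high fat diet. Of 8 stellate cell markers, 3 were higher in females on high fat diet. In males no stellate cell marker passed by edgeR, with 5 at an unadjusted p under 0.05, against 27.5% of all tested genes. No defining marker of the macrophage, neutrophil and stellate cell lists was at 0 in every library. The neutrophil markers Ly6g, Retnlg, Mpo, Elane, Ngp, Camp and Cxcr2 fell below the filter on low counts and were not tested. In males, 5 adipocyte markers summed to 5.03 to 9.73 TPM on normal diet and 10.9 to 42.8 on high fat diet. There, 8 T cell markers summed to 1.31 to 3.09 and 7.39 to 17.9 TPM on the 2 diets. Of these, 1 of the 2 adipocyte markers tested and 1 of the 6 T cell markers tested were higher. The adipocyte markers Plin1, Lep and Retn and the T cell markers Cd8a and Trac fell below the filter on low counts. The part of these cells in the levels of the immediate early genes was not tested.

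Some AP-1 subunits shifted between the diets in proportion as well as in level. In females, Fos made up 20.8% ± 6.75 of the summed TPM of the 4 Fos family genes on normal diet and 65.5% ± 7.21 on high fat diet (SD, n = 4 each). In males the shares were 30.9% ± 9.81 and 37.2% ± 13.7, and their ranges overlapped. Fosl2, a Fos relative that lacks a strong activation domain, did not pass in females, at a log2 difference of 0.18 ± 0.21, and rose in males by 0.87 ± 0.20 (adjusted p 0.0102 by edgeR). Fosl1 was listed at 0 TPM in all 16 libraries.

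In the Jun family, Jund, which is expressed more constantly than its relatives, held 58.5% ± 4.93 of the summed TPM in females and 56.6% ± 6.15 in males on normal diet. On high fat diet it held 43.3% ± 7.85 and 37.9% ± 6.50. Its own level did not pass in either sex, with log2 differences of 0.23 ± 0.12 in females and 0.18 ± 0.12 in males. In females the share of Junb was 18.5% ± 2.90 on normal diet and 32.3% ± 2.08 on high fat diet, and that of Jun 23.0% ± 2.41 and 24.4% ± 6.63. In males the share of Jun was 20.4% ± 5.34 and 37.3% ± 4.77, and that of Junb 22.9% ± 4.52 and 24.8% ± 7.88. The ranges of the shares did not overlap between the diets for Jund in either sex, Junb in females or Jun in males. They overlapped for Jun in females and Junb in males, and shares were not tested.

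Relatives of the 2 brakes were measured too, where 11.5% of all tested genes passed in females and 11.4% in males. At an unadjusted p under 0.05 the share in males was 27.5%. Zfp36l1, which also binds AU-rich mRNAs, rose in females by 1.15 ± 0.14 on the log2 scale (SE, adjusted p 6.25e-05 by edgeR) and in males by 0.75 ± 0.14 (adjusted p 0.00182), so that the Zfp36 share of the 3 family genes was 28.2% ± 2.14 and 17.8% ± 2.74 in females on normal and high fat diet. Il1b, a cytokine whose mRNA carries AU-rich elements, rose in both sexes, by 1.44 ± 0.21 in females (adjusted p 0.000350) and 1.74 ± 0.23 in males (adjusted p 0.000116). Of the 6 tested genes among 13 in this list of Zfp36 relatives and AU-rich targets, 3 rose in females and 2 in males, and none fell. Among 7 tested MAP kinase phosphatases other than Dusp1, Dusp10 rose in females by 0.78 ± 0.19 (adjusted p 0.0140), and in males none passed by edgeR, with 2 at an unadjusted p under 0.05. Dusp6, an ERK phosphatase, differed by 0.87 ± 0.28 in females (adjusted p 0.0572) and by -0.80 ± 0.28 in males (adjusted p 0.0798).

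**Figure D3:**
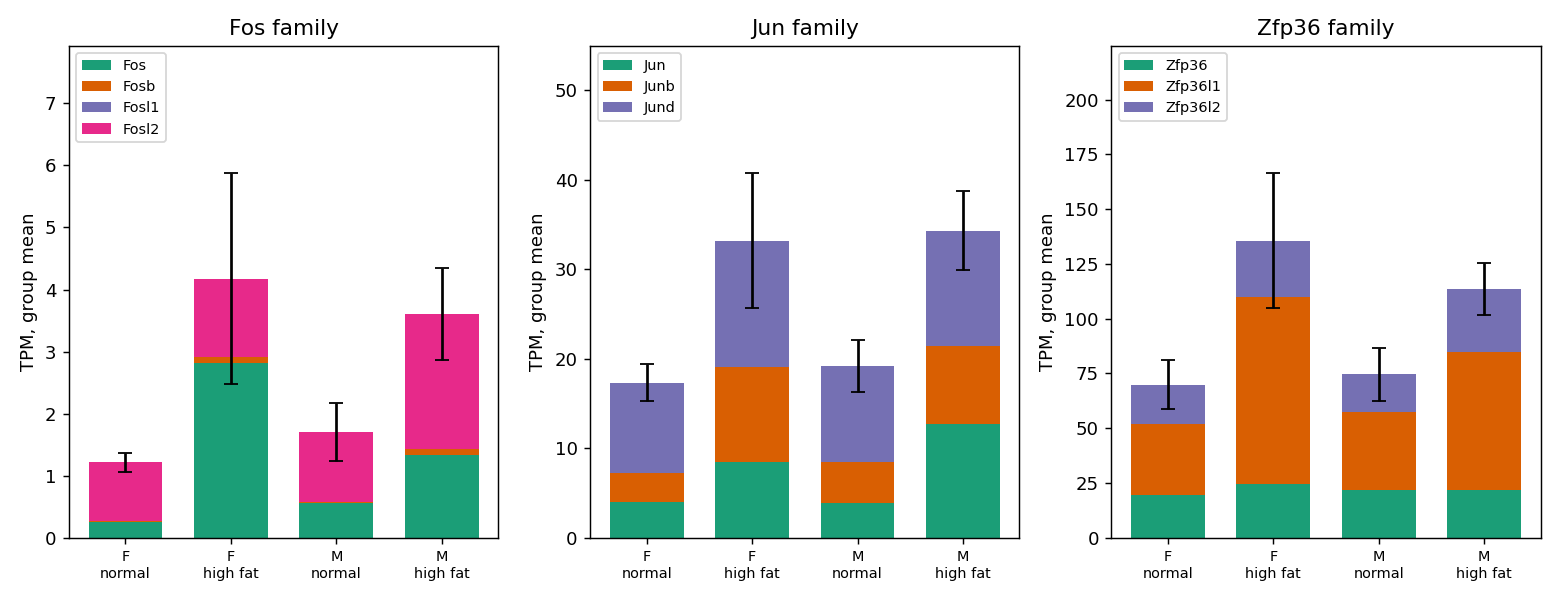
Mean TPM of each gene of the Fos, Jun and Zfp36 families in the 4 sex and diet groups (n = 4 libraries each), stacked, with the SD of the family sum as the error bar. Fos grows from 20.8% to 65.5% of its family in females, and Jun from 20.4% to 37.3% of its family in males. Zfp36l1 has the largest share of the Zfp36 family on both diets. On normal and high fat diet it is 46.9% and 63.2% in females, and 48.4% and 55.5% in males with overlapping ranges.

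Of 40 further primary response genes, 36 were tested. In females on high fat diet 8 rose and 6 fell, where 11.5% of all tested genes passed, and the median log2 difference was 0.18. In males 1 rose and 1 fell, where 11.4% of all tested genes passed, and the median was 0.22. In females Gadd45a, a growth arrest and DNA damage gene, rose by 2.01 ± 0.32 on the log2 scale (SE, adjusted p 0.000730 by edgeR), and Pim1, a kinase that promotes survival, rose by 1.07 ± 0.18 (adjusted p 0.00141). Ccn2, a matricellular growth factor, fell by 1.65 ± 0.29 in females (adjusted p 0.00204), and Tob2, an antiproliferative protein, fell by 0.84 ± 0.18 (adjusted p 0.00631). Nfkbia, the inhibitor of NF-kappa B, fell in both sexes, by 0.54 ± 0.12 in females (adjusted p 0.00873) and by 0.59 ± 0.12 in males (adjusted p 0.00506). Fosl2 rose in males, as given above. Of the 15 other AP-1 family genes, 13 were tested, and 2 rose in females, Mafk by 0.46 ± 0.13 and Batf by 1.54 ± 0.44, and 1 in males, Fosl2. Of the 12 tested relatives of Klf6, none rose: 4 fell in females (Klf3, Klf9, Klf13 and Klf15) and 2 in males (Klf15 and Klf16).

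The factors and kinases upstream of the immediate early genes were measured at the RNA level. Over all tested genes, 11.5% passed in females and 11.4% in males, and 27.5% had an unadjusted p under 0.05 in males. Of 14 upstream factors, 1 rose and 1 fell in females, and in males none passed by edgeR, with 5 at an unadjusted p under 0.05. The female genes were Crtc1, a CREB coactivator, at 0.50 ± 0.15 on the log2 scale (SE, adjusted p 0.0436 by edgeR), and Nab1, a repressor of EGR proteins, at -0.54 ± 0.10 (adjusted p 0.00339). Of 19 MAP kinase cascade genes, 2 rose in females (Mapk3 and Rps6ka1), 2 fell (Mapk8 and Braf), and in males none passed by edgeR, with 3 at an unadjusted p under 0.05. Of these 4 changes, that of Rps6ka1 was 0.51 ± 0.14, and the other 3 lay between -0.42 and 0.49. The data hold RNA levels and no measure of kinase activity.

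Lists of hormone, stress and clock genes were counted in the same way, where 11.5% of all tested genes passed in females and 11.4% in males. Of 11 glucocorticoid-responsive genes, 9 fell in females, and in males 5 fell and 1 rose. Tat, a tyrosine-degrading enzyme induced by glucocorticoids, fell by 1.81 ± 0.19 in females (SE, adjusted p 1.63e-05 by edgeR) and by 1.42 ± 0.19 in males (adjusted p 0.000125). Of 11 heat shock genes, 2 fell in females and 8 in males, and Hsph1, a chaperone, fell by 2.25 ± 0.24 in males (adjusted p 4.35e-05). Of 9 ATF4 and integrated stress genes, 2 fell in females and 1 in males, and none rose. Of 13 tested clock genes, 2 rose and 5 fell in females, and 1 rose and 9 fell in males. Their part in the levels of the immediate early genes was not tested.

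Animals within a group differed more in some of these genes than in others. The SD of log2 CPM about the group means was 0.82 for Dusp1, which placed it at percentile 95.1 among the 14781 tested genes. It was 0.62 for Fos (percentile 87.9), 0.60 for Atf3 (86.9), 0.56 for Egr1 (84.8), 0.44 for Junb (75.6) and 0.41 for Jun (73.1). Ier2 at 0.29, Zfp36 at 0.29 and Klf6 at 0.25 lay near the median over all tested genes, 0.26.

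The genes varied together only in part. Over the 36 pairs of the 9 genes, the Pearson correlation of log2 CPM with group means removed had a median of 0.33 across the 16 libraries, with a range of -0.41 to 0.78. Fos and Dusp1 were the most alike pair (r = 0.78, Spearman's rho = 0.70), followed by Fos and Jun (r = 0.70) and Egr1 and Zfp36 (r = 0.70). Atf3 and Klf6 stood apart from these: they correlated with each other (r = 0.61, rho = 0.59), while their correlations with Dusp1 were -0.31 and -0.17 and with Zfp36 -0.28 and -0.41. With the mean of the other 8 genes, Fos had r = 0.83, Egr1 0.72 and Zfp36 0.65, and Atf3 had 0.07 and Klf6 -0.01. These values describe 16 libraries that the genes share, including 2 near-identical ones, and carry no p.

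Leaving out 2 libraries lowered the correlation of some pairs and left the median about the same. Female high fat replicate 2 had the highest value of its group for 8 of the 10 genes, and the mean z-score of the 9 tested genes in it was 1.14, against -1.01 in female high fat replicate 3. For Klf6 the same replicate 2 was the lowest of its group. Replicates 2 and 3 were picked for leaving out as the farthest from the median of the mean z-score of these 9 genes. That choice itself favours lower correlations without them. Without these 2 libraries the median correlation was 0.34, that of Fos with Dusp1 0.76 and that of Atf3 with Klf6 0.63, while that of Fos with Egr1 was 0.57 in place of 0.68 and that of Jun with Egr1 0.33 in place of 0.62. Replicates 2 and 3 had macrophage marker sums of 520 and 421 TPM and neutrophil sums of 8.37 and 7.13 TPM. Replicates 1 and 4 had higher macrophage sums than replicate 2, at 546 and 656 TPM, and neutrophil sums of 20.2 and 8.14 TPM. Their mean z-scores were -0.73 and 0.60, both below that of replicate 2. The marker sums of this group thus did not follow the order of the z-scores, and the part of these cells was not tested.

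**Figure D4:**
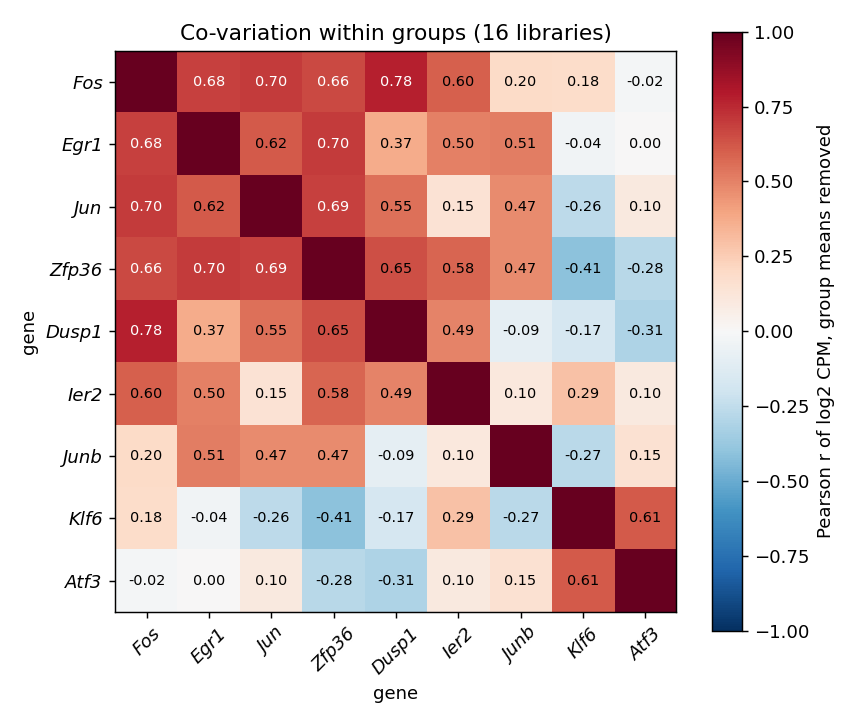
Pearson correlation between each pair of the 9 tested immediate early genes across 16 libraries, on log2 CPM with group means removed, with the colour scale from -1 to 1. Fos, Egr1, Jun, Zfp36 and Dusp1 correlate with each other at 0.37 to 0.78, while Klf6 and Atf3 correlate with each other at 0.61 and with those 5 at 0.18 or less.

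**Figure D5:**
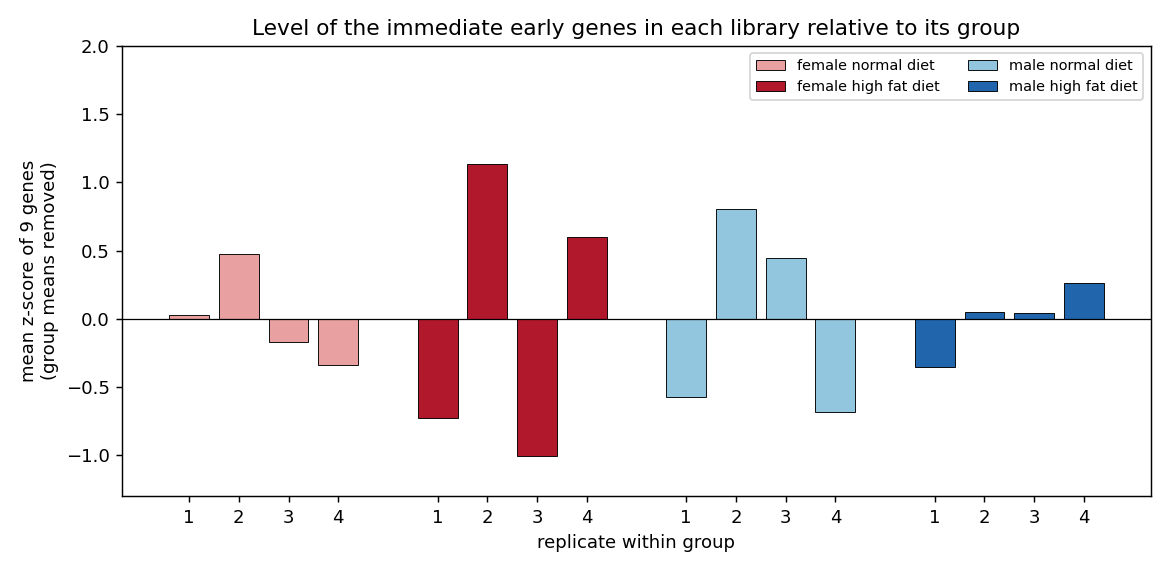
Mean z-score of the 9 tested immediate early genes in each library, with group means removed, by replicate number within the 4 sex and diet groups. Female high fat diet replicates 2 and 3 lie at the 2 extremes, 1.14 and -1.01, and the male high fat diet libraries lie closest together.

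Likeness was measured over 10965 other genes whose log2 CPM averaged 1 or more. By Pearson correlation over all 16 libraries, the gene whose pattern within groups was most like the mean of the 9 was Spry4, a feedback inhibitor of receptor tyrosine kinase signalling, with r = 0.81 and rho = 0.84. Next came Rbms1 (r = 0.79), Sla (0.78), Sorbs2 (0.78), Sowahc (0.78), Rassf4 (0.77), Arhgap26 (0.77), Abcc4 (0.76), Tmem63b (0.76) and Lrch1 (0.76). With rank correlation, 7 of these 10 were again in the first 10, with Sla (rho = 0.85) and Sowahc (0.85) ahead of Spry4. Without female high fat replicates 2 and 3, r was 0.93 for Sla, 0.91 for Arhgap26, 0.81 for Sorbs2 and 0.79 for Spry4. The likeness within groups did not always hold across groups. With group means kept, r was 0.86 for Rassf4, 0.81 for Spry4, 0.76 for Lrch1, 0.63 for Arhgap26, 0.53 for Sowahc and 0.40 for Sla. It was 0.09 for Rbms1, 0.05 for Sorbs2, 0.00 for Tmem63b and -0.17 for Abcc4. None of these 10 genes was in the list of 40 related primary response genes. Of that list, Csrnp1, a cysteine- and serine-rich nuclear protein, came closest, at rank 19 with r = 0.70, and the median r of the 30 list genes in this set was 0.29, against 0.03 for all 10965. No p is attached, since these correlations share the same libraries.

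Reads of 4 of the genes may be mixed with those of overlapping genes, since the source does not state whether counting used the strand. In the GENCODE M21 annotation, exons of Jun overlap Junos, those of Junb overlap Prdx2, those of Dusp1 overlap Ergic1 and those of Zfp36 overlap Gm44710, all on the other strand. Prdx2 did not follow Junb: its log2 difference was -0.23 ± 0.13 in females and -0.13 ± 0.13 in males, and its correlation with Junb within groups was -0.37. Ergic1 differed by 0.19 ± 0.09 in females and 0.03 ± 0.09 in males and had a correlation of 0.64 with Dusp1, so how many of these reads belong to Dusp1 is uncertain. Junos was at 0.512 CPM or less and Gm44710 at 0.111 CPM or less in every library, far below Jun and Zfp36.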

How the data were processed

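RNA-seq of 16 mouse livers (4 groups of 4) was analysed from 2 deposited tables. Per the submitters' processing notes, the tools included STAR and RSEM and the genome build was GRCm39. Versions, annotation and strand setting are not given in the sources used here. The authors deposited RSEM expected counts, in which reads shared between genes are divided by a likelihood model (4.89% of entries are not whole), and TPM, in which counts are divided by effective gene length and scaled to a fixed library total. Symbols were matched by Ensembl identifier without version, and 51487 of 78317 identifiers matched.

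Expected counts were rounded and filtered with filterByExpr, which left 14781 genes with 99.94% of the counts. They were scaled by TMM and fitted with edgeR 4.0.16 (R 4.3.3), glmQLFit and glmQLFTest with robust settings, 1 mean per group and a spread shared by the 16 libraries. Tests were two-sided, with Benjamini-Hochberg adjustment over all tested genes. Each SE was taken from the ratio of the fitted log2 change to the root of its F statistic. Correlations used log2 CPM with a prior count of 2. Alternatives were DESeq2 1.42.0, limma 3.58.1 on log2(TPM + 1) and log2(TPM + 0.1), other scaling and filters, a replicate block, and leaving libraries out. The fits were tested on simulated counts.

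The members and gene lists were chosen with earlier results of these data known. All 10 members are named in every comparison. From each related list up to 4 genes per contrast with the smallest adjusted p could be named, plus the 10 genes most like the members. Fosl1, Jund and Dusp6 were named as family relatives, and Csrnp1 as the closest related gene, after their values were seen.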

Additional observations from a re-analysis of the deposited data

Results flagged for a closer look

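Of the 40 sets of 4 values (10 genes in 4 groups), 4 held a library far from the other 3 of its group, by the gap to its neighbour relative to the range, where chance gives about 1 in 20. Fos in females on normal diet was highest in replicate 2, at 0.582 CPM, against 0.329 to 0.371 CPM in the other 3, which is 19 reads against 9 to 13. Fosb in females on normal diet was highest in the same replicate, at 0.307 CPM, or 10 reads, against 0 or 1 read in the other 3. Jun in males on normal diet was highest in replicate 3, at 14.8 CPM, against 8.33 to 8.81 CPM. Zfp36 in males on normal diet was lowest in replicate 4, at 31.6 CPM, against 49.5 to 51.6 CPM. All 4 lay in normal diet groups. Jun kept its male diet call without that replicate 3, and its male log2 fold change was between 1.52 and 1.86 over all fits that left out 1 library.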

How the results depend on the processing

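None of the alternatives reversed a called direction. Counts of called genes that moved by over 1.5 times were as follows. In females, diet gave 7 in place of 4 with limma on log2(TPM + 1) and 7 on log2(TPM + 0.1), where the median over all genes also moved, by 0.15 and 0.22 on the log2 scale. In males, diet gave 2 in place of 4 with limma on log2(TPM + 1) and 2 with no filter on low counts. The interaction gave 2 in place of 0 with DESeq2. Sex on normal diet gave 0 in place of 1 with limma at either pseudocount, with only the groups compared in the fit, and with both male high fat diet replicates 2 and 3 left out, an alternative chosen after seeing the data. Sex on high fat diet gave 1 in place of 3 with those replicates averaged and 1 with both left out. The cause of these changes was not tested. Over the 16 fits without 1 library, the counts ranged from 3 to 5 for diet in females, 1 to 4 for diet in males, 0 to 0 for the interaction, 0 to 1 for sex on normal diet and 0 to 2 for sex on high fat diet. Of the single-gene results, 1007 kept their side of the threshold, 26 gained and 83 lost the call. The replicate block gave 2 in place of 1 for sex on normal diet (Klf6 and Fos). It called 4 genes for diet in each sex, with Fos in place of Junb in males. Same-numbered libraries of the 2 diets did not deviate together: the correlations were -0.17 to 0.02 in females and -0.21 to 0.00 in males. This check compared the diets within a sex only. Whether a number marks animals housed or collected together was not tested. The median pairwise correlation was 0.40 on log2(TPM + 1) and 0.33 with the near-identical libraries averaged. Depth limits Fosb (0 to 14 reads) and Fos on normal diet in females (9 to 19 reads).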
